A study of Mus musculus with 4 samples.

Results

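The genes described here are 6 genes of meiotic DNA double-strand break (DSB) formation, namely Spo11, Mei1, Mei4, Rec114, Ankrd31 and Prdm9. They were taken by gene name from a table of 55421 genes, and all 6 were among the 20232 genes that had enough counts to be tested. RNA was measured in cultured spermatogonia (SSC cultures, for spermatogonial stem cells) set up from testes of neonatal CD1 mice, and the comparison asks how these genes respond when the cultures are pushed towards meiosis. In the Veh group (2 libraries) the cultures were kept in the complete SSC medium. In the NRRA group (2 libraries) they received a nutrient restriction medium together with retinoic acid (RA). It was made by diluting a small part of the complete SSC medium in Earle's Balanced Salt Solution. The study describes such treatments as lasting 2 days. According to the labels the cultures of both groups were grown with N2 and with bFGF and GDNF at 10 ng/ml each. The study's list of media gives a higher GDNF dose for the complete SSC medium. By that list the dilution also lowered these supplements in the NRRA medium. Nutrient restriction, less growth factor and RA therefore cannot be told apart in these 2 groups. Neither the labels nor the methods name an engineered allele in the cultures. Both groups stood on mitotically arrested mouse embryonic fibroblast feeder cells from another mouse stock, so each library holds RNA of more than 1 cell type, and in such samples fewer cells of a type and less RNA per cell cannot be told apart. The study's methods call the replicates of its sequencing independent biological ones and say that replicates used different mice, tissues or cells, while the labels do not tie single libraries to a culture or mouse. The p-values rest on the spread between these libraries, with the variance of each gene drawn towards that of all tested genes.

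DSBs are the starting point of meiotic recombination. SPO11, a relative of the DNA-cutting subunit of archaeal type VI topoisomerases, cuts both strands together with its partner TOPOVIBL. It acts on the chromosome axis with a group of accessory proteins, of which REC114, MEI4, MEI1 and IHO1 are needed for most breaks and ANKRD31 for break timing and for breaks in the region shared by the X and Y chromosomes. PRDM9 decides where most breaks fall in mice, because its zinc fingers bind particular DNA motifs and its PR/SET domain methylates the histones around them.

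The libraries held between 28022265 and 31604769 counts. Germ cell markers (Ddx4, Dazl, Mael and Tdrd1) summed to 1243 and 1317 CPM (counts scaled to the size of each library by the TMM method) in Veh and to 1300 and 1292 CPM in NRRA, a sum of which Dazl made up more than any other marker. Of the 4, Dazl was higher (log2 fold change 0.16), Tdrd1 (-0.45) and Mael (-0.15) were lower, and Ddx4 was not past the threshold (0.023). All 6 markers of undifferentiated spermatogonia were lower in NRRA, with sums of 1399 and 1385 CPM in Veh against 288 and 283 CPM in NRRA. The 10 fibroblast markers summed to 8437 and 8330 CPM in Veh and to 6649 and 6507 CPM in NRRA, with 7 lower and 2 higher. Fn1 alone made up 6143 and 6087 CPM of the Veh sums and 4362 and 4352 CPM of the NRRA sums, while Pdgfra (log2 fold change 0.98) and Col3a1 (0.61) were the higher ones. The 6 Sertoli markers summed to 35.3 and 39.4 CPM in Veh against 16.7 and 17.8 CPM in NRRA, with 1 of them past the threshold, Sox9, which was lower (-1.59). Sox9 alone made up 27.1 and 29.4 CPM of the Veh sums and 9.33 and 9.43 CPM of the NRRA sums. Leydig and macrophage markers summed to at most 9.58 and 35.2 CPM in any library, with 1 of 5 higher and 1 of 4 lower. These counts of markers stand beside 27.9% higher and 28.4% lower among all tested genes. Amh and Hsd3b1 were at or under 3 counts everywhere. The part of these shifts in the changes below was not tested. Stra8, the RA-induced gatekeeper of meiosis, checks the RA part of the treatment and rose from 261 and 300 counts to 60702 and 55775 counts. It does not check the nutrient restriction.

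Among the 6 genes, Mei1 and Prdm9 rose by a little over 2-fold in NRRA, Rec114 rose by 1.12-fold, and Spo11, Mei4 and Ankrd31 did not pass the test. Thus 3 of the 6 were higher and 0 lower at an adjusted p under 0.05 (edgeR quasi-likelihood test, Benjamini-Hochberg adjustment over all tested genes). By an unadjusted p under 0.05 there were also 0 lower. In these 3 genes both NRRA libraries lay above both Veh libraries in CPM, which was the case for 38.1% of all tested genes. Across all tested genes 27.9% were higher and 28.4% lower by the same criterion, and 56.4% changed in either direction. A rise past that threshold of at least 2-fold was found for 2 of the 6 and for 6.29% of all tested genes. The median log2 fold change (NRRA over Veh) was 0.18 over the 6 genes and 0.00029 over all tested genes. With scaling to library size alone, the share of all calls that were higher moved from 49.57% to 60.25%. DESeq2 called only Mei1 and Prdm9 among the 6.

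**Figure D1:**
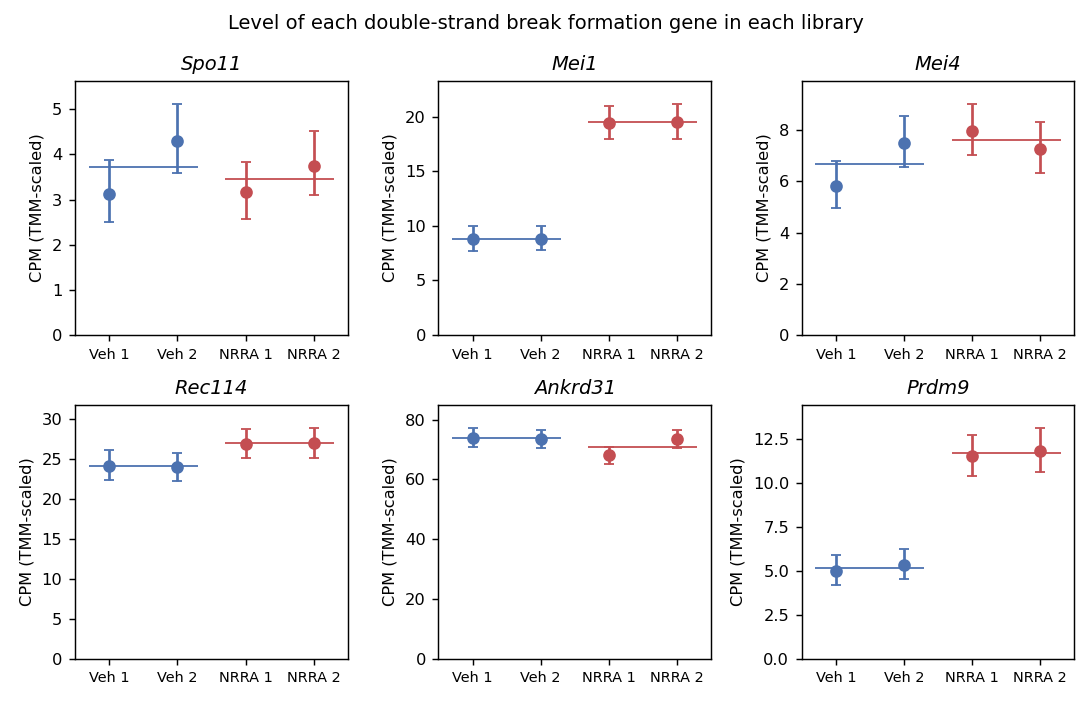
The level of each gene in CPM (y axis, from 0) in the 2 Veh libraries (blue) and the 2 NRRA libraries (red), with exact 95% Poisson intervals for counting error as bars and group means as horizontal lines. Mei1 lies at 8.78 and 8.84 CPM in Veh and at 19.4 and 19.5 CPM in NRRA, whereas the Spo11 libraries of both groups overlap.

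Spo11 encodes the catalytic subunit (ENSMUSG00000005883, GRCm38 chromosome 2, 172977700 to 172993576, plus strand). No exonic base of it overlaps another annotated gene. It was counted 85 and 128 times in Veh against 103 and 113 times in NRRA, or at 3.13 and 4.30 CPM against 3.16 and 3.75 CPM. Both NRRA values lay between the 2 Veh values. NRRA differed from Veh by -0.11 on the log2 scale (SE 0.19, adjusted p by edgeR 0.641), with a 95% interval from -0.50 to 0.28. A rise of more than 1.21-fold or a fall of more than 1.42-fold lies outside that interval. Counting error alone was between 8.84% and 10.8% of the value in a library. The sign depended on single libraries, with values of 0.14 without Veh replicate 2, 0.012 without NRRA replicate 1, -0.24 without NRRA replicate 2 and -0.32 without Veh replicate 1.

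Mei1 encodes one of the accessory proteins needed for DSB formation (ENSMUSG00000068117, chromosome 15, 82069996 to 82126814, plus strand, 31 separate stretches of exon). Its counts were 238 and 263 in Veh against 633 and 587 in NRRA. In CPM the NRRA libraries, at 19.4 and 19.5, stood clearly above the Veh libraries, at 8.78 and 8.84, and the means were 8.81 ± 0.0451 and 19.5 ± 0.0441 CPM (SD, n = 2 per group). This is a 2.21-fold rise (95% interval 1.93 to 2.53), a log2 fold change of 1.14 with an SE of 0.094 and an edgeR adjusted p of 7.37e-11. Counting error alone was between 3.98% and 6.48% of the value in a library. That is more than these SDs amount to, so they overstate the precision. Mei1 was past the threshold in 12 of 12 other fits, with log2 fold changes between 1.14 and 1.23.

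Mei4, a partner of REC114 in axis foci (ENSMUSG00000043289, chromosome 9, 81863670 to 82206007, plus strand) differed more between the Veh replicates than between the group means. It had 158 and 223 counts in Veh against 260 and 219 in NRRA. In CPM these were 5.83 and 7.50 against 7.98 and 7.28, so the second NRRA library fell within the Veh range. The log2 fold change of 0.19 (SE 0.14, 95% interval -0.091 to 0.48) had an edgeR adjusted p of 0.247. Without Veh replicate 2 it was 0.39 and passed the threshold (adjusted p 0.0351), and without Veh replicate 1 it was 0.026 (adjusted p 0.907). A rise of more than 1.39-fold lies outside the interval of all 4 libraries.

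Rec114 forms a complex with MEI4 and with ANKRD31 (ENSMUSG00000074269, chromosome 9, 58652850 to 58743964, minus strand). Its counts were 656 and 714 in Veh against 877 and 813 in NRRA, or 24.2 and 24.0 CPM against 26.9 and 27.0 CPM. The groups did not overlap, which held for 76.7% of all tested genes. The log2 fold change was 0.16 (SE 0.069, 95% interval 0.020 to 0.31, edgeR adjusted p 0.0477). This call was lost in 6 of 12 other fits, among them DESeq2 (adjusted p 0.255) and each fit with 1 library left out. The direction stayed in all 12. Exons of Nptn, a neuroplastin gene on the opposite strand, overlap 26.9% of the exonic bases of Rec114, and the strand setting of the counting is not given in the sources used here. Nptn had 3952 and 4484 counts in Veh against 4639 and 4181 in NRRA, a log2 fold change of -0.076 (edgeR adjusted p 0.0603). The part of Nptn reads in the Rec114 value was not tested.

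Ankrd31 was the most counted of the 6 (ENSMUSG00000109561, chromosome 13, 96748272 to 96910039, plus strand). It had 2005 and 2187 counts in Veh against 2214 and 2210 in NRRA, or 73.9 and 73.5 CPM against 68.0 and 73.4 CPM. Only the first NRRA library stood apart, and the second lay next to the Veh pair. The log2 fold change was -0.061 (SE 0.046, 95% interval -0.16 to 0.033, edgeR adjusted p 0.271), and it turned to 0.029 with scaling to library size alone. A fall of more than 1.11-fold or a rise of more than 1.02-fold lies outside the interval, which is the tightest of the 6.

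Prdm9, the gene of hotspot selection, rose the most (ENSMUSG00000051977, chromosome 17, 15543079 to 15564354, minus strand). Its counts were 135 and 159 in Veh against 375 and 356 in NRRA. The means were 5.16 ± 0.259 CPM for the Veh pair and 11.7 ± 0.220 CPM for the NRRA pair (SD, n = 2 each), with no overlap between the libraries. Counting error alone was between 5.16% and 8.61% of the value in a library, which is more than these SDs amount to. The rise was 2.26-fold (95% interval 1.90 to 2.69), or 1.17 on the log2 scale (SE 0.12, adjusted p by edgeR 5.08e-09). It was past the threshold in 12 of 12 other fits, from 1.13 without Veh replicate 1 to 1.26 with library size alone. The 95% intervals of Mei1 and Prdm9 cover much the same range, and their difference was not tested.

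The zinc finger array of Prdm9 is coded by tandem units of 84 bases in its last exon. These units are nearly identical, and whether this bears on the count was not tested. In the longest coding transcript of GENCODE M21 (reference strain) 10 complete units follow each other, and 5 of the 45 pairs of units have the same sequence. Of all 100-base windows of that transcript, 12.5% occur more than once within it and 0% in another gene. How reads with several matches were treated is not given in the sources used here. The first and the sixth unit, which are among the least alike, are shown 5′ to 3′ on the coding strand. They lie at chr17:15544807-15544890 and chr17:15544387-15544470 (GRCm38, minus strand), and capitals mark the 5 bases at which they differ.
Prdm9 unit 1: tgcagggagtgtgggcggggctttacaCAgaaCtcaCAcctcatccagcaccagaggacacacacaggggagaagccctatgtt
Prdm9 unit 6: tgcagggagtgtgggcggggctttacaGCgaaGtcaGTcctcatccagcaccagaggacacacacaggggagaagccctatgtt
The mice of these cultures were CD1, and their own array was not read here.

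**Figure D2:**
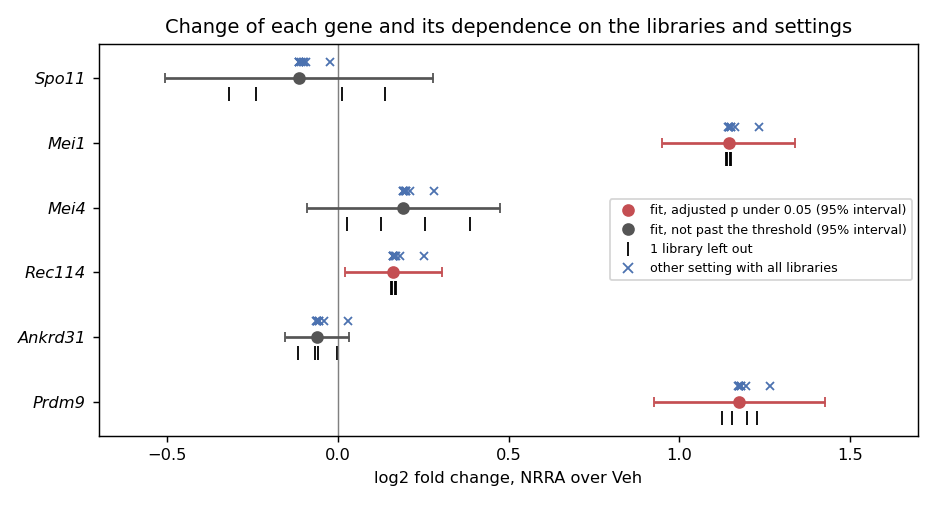
Log2 fold changes (x axis, NRRA over Veh) of the 6 genes with 95% intervals, red where the adjusted p was under 0.05 and grey otherwise. Black ticks below each point are the 4 fits with 1 library left out and blue crosses above it the other settings with all libraries, and the ticks of Spo11 lie on both sides of 0 while those of Mei1 and Prdm9 stay above 1.12.

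The promoters of the genes that rose most are shown because both moved by a similar amount in the same libraries. The sequences are from a set of promoter windows at RefSeq start sites (GRCm38.p6). The set used here held 5 of the 6 genes, with 2 start sites for Prdm9, and lacked a window for Spo11. Windows of 300 bases around each start were searched on both strands for CACGTG (the E-box bound by MAX and MGA), GCGGGAA (an E2F core), AGGTCA (a nuclear receptor half-site) and CNCCTCAG (reported in promoters of STRA8-dependent genes). The 250 bases before each start are printed in lower case with matches in capitals. The Prdm9 window, chr17:15564355-15564604 on the minus strand, ends at the outer start of the gene and overlaps no annotated exon. The Mei1 window, chr15:82082226-82082475 on the plus strand, lies inside the gene, 12480 bases from the outer start that GENCODE gives, and 12 of its bases are exonic there.
Prdm9: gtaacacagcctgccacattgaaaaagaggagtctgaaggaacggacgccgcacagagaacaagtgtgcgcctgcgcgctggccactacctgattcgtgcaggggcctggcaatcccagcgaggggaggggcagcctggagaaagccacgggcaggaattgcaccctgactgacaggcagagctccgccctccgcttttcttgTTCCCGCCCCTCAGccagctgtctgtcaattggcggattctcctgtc
Mei1: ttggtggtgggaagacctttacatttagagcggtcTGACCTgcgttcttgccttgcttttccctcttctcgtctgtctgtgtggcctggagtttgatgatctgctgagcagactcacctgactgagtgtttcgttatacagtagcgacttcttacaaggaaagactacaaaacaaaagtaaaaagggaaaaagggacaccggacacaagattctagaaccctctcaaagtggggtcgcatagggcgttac
In Prdm9 the capitals hold an E2F core at positions -47 to -41 and a CNCCTCAG match that begins at -41, so that they share 1 base, and a second CNCCTCAG match begins 15 bases into the transcript. The Mei1 window holds an AGGTCA half-site at -215 and none of the other letters. Among the other genes, Rec114 had CACGTG at -19 and GCGGGAA at 27, while the windows of Mei4, Ankrd31 and the inner Prdm9 start held none of the 4. These motifs occur in 7.15% (CACGTG), 4.6% (GCGGGAA), 16.3% (AGGTCA) and 7.94% (CNCCTCAG) of all 32851 windows of that length. A match describes the letters and not a bound site.

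Ratios of counts within a library do not depend on how libraries are scaled. Prdm9 had 1.59 and 1.24 counts for each Spo11 count in Veh against 3.64 and 3.15 in NRRA. For Mei1 the ratio was 2.80 and 2.06 in Veh against 6.15 and 5.19 in NRRA. The NRRA ratios of both genes lay above both Veh ratios. Rec114 gave 7.72 and 5.58 against 8.51 and 7.2, Mei4 1.86 and 1.74 against 2.52 and 1.94, and Ankrd31 23.6 and 17.1 against 21.5 and 19.6. The Rec114 and Ankrd31 ratios overlapped between the groups. Those of Mei4 did not, whereas its CPM values did, and all these ratios carry the spread of Spo11, with its 85 and 128 counts in Veh. As a share of the counts of all 6 genes, Prdm9 took 4.12% and 4.33% in Veh and 8.4% and 8.28% in NRRA, and Mei1 7.26% and 7.16% against 14.2% and 13.7%. The share of Ankrd31 was 61.2% and 59.5% in Veh and 49.6% and 51.4% in NRRA. The summed level of the 6 genes was 121 and 124 CPM in Veh and 137 and 143 CPM in NRRA.

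Levels of different genes were compared per kilobase of annotated exon (RPKM). Rec114 was highest, at 18.9 ± 0.106 RPKM in Veh and 21.1 ± 0.0429 in NRRA (SD, n = 2 per group), and Ankrd31 was second, at 11.9 ± 0.0483 and 11.4 ± 0.619 RPKM. The other 4 genes were far below. In Veh they followed as Mei1 (1.86 ± 0.00952 RPKM), Mei4 (1.62 ± 0.286), Prdm9 (1.20 ± 0.0601) and Spo11 (0.948 ± 0.211). In NRRA Mei1 (4.11 ± 0.00931 RPKM) and Prdm9 (2.71 ± 0.0511) stood above Mei4 (1.85 ± 0.122) and Spo11 (0.882 ± 0.107). The libraries of neighbours in these orders did not overlap, although Mei1 and Mei4 in Veh were separated by less than the spread of Mei4. The lower Veh order also depended on the length used. With the longest coding transcript in place of all exons, Rec114 (27.3 RPKM) and Ankrd31 (12.6) kept their places in Veh, and Mei4 (2.49) came before Spo11 (2.17), Mei1 (2.13) and Prdm9 (1.49). The order in NRRA was the same by both lengths. The RPKM of Rec114 may include Nptn reads, as above. The SDs of Rec114, Mei1 and Prdm9 are smaller than the counting error of a library and so overstate the precision.

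**Figure D3:**
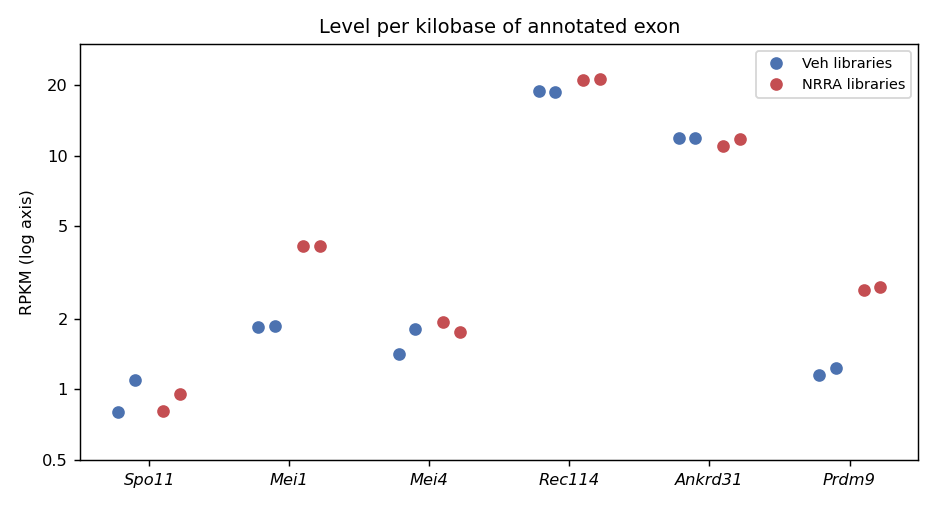
Level of each gene in RPKM over all annotated exons (log axis) in each Veh (blue) and NRRA (red) library. Rec114 and Ankrd31 lie between 10.9 and 21.2 RPKM in every library, and the other 4 genes lie at 4.11 RPKM or below.

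Partners of the 6 genes in the same step moved less than Mei1 and Prdm9. Hormad1, an axis protein that recruits the accessory factors, rose from 404 and 444 to 734 and 650 counts, or 0.57 on the log2 scale (SE 0.081, adjusted p by edgeR 1.23e-06). Of its 100-base windows, 11.8% occur in identical form in the pseudogene Gm15529. Ccdc36, which encodes IHO1, rose by 0.55 on the log2 scale (573 and 658 to 1065 and 916 counts, adjusted p 2.34e-07). Trip13, an ATPase that removes HORMAD proteins from synapsed axes, fell by 0.48 on that scale (1849 and 2038 to 1592 and 1480 counts). Gm960, which encodes TOPOVIBL, the partner of SPO11, had 74 and 110 counts in Veh against 137 and 123 in NRRA, with a log2 fold change of 0.36 and an adjusted p of 0.0969. Hormad2 was at 0.0015 (adjusted p 0.990). The list of 5 thus held 2 higher genes and 1 lower gene around a median of 0.36, or 3 of 5 called beside 56.4% of all tested genes.

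Known partners and readers of PRDM9 moved by less. Of 7 genes 4 were higher and 2 lower, all within 1.27-fold, with a median log2 fold change of 0.12, beside 27.9% higher and 28.4% lower over all tested genes. The count of lower genes was 1 with DESeq2, with upper quartile scaling, with library size only, without the filter and without NRRA replicate 1. Zcwpw1, the reader of the histone marks that PRDM9 writes, was among the higher genes, at 0.17 (3594 and 3801 counts in Veh, 4739 and 4402 in NRRA), and Pilra exons on the other strand overlap 8.21% of its exonic bases. Hells, a chromatin remodeller that acts with PRDM9, was at 0.16, and Ewsr1, an RNA-binding partner, was lower, at -0.34. Zcwpw2, a gene with 83 to 110 counts in each library, was at -0.10 (adjusted p 0.674).

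Genes that act after the cut moved both ways. Among 12 genes of break signalling and end processing 6 passed the threshold upwards and 3 downwards (median 0.083), against 27.9% and 28.4% of all tested genes. Tex15, needed for loading recombinases in spermatocytes, rose most (0.66), and Rbbp8, which encodes the end resection factor CtIP, rose by 0.44. Topbp1 fell by 0.54 and Atm, the kinase that limits the number of breaks, by 0.22 on the log2 scale. Of 14 strand exchange genes 13 were tested, 5 of them higher and 5 lower, with a median of -0.033, beside the same shares over all genes. The count of higher genes was 1 with DESeq2, 2 without Veh replicate 1 and 3 without each of the other libraries in turn, and the count of lower genes was 2 with library size only and 3 without NRRA replicate 1. Dmc1, the meiotic recombinase, was at 1.06 and was the one gene here with a rise of at least 2-fold. Mnd1, a cofactor of DMC1, fell by 0.83 on that scale (285 and 327 to 196 and 182 counts), and 16.2% of its 100-base windows match a pseudogene. Spata22, with 3 and 4 counts in Veh against 13 and 0 in NRRA, was too low to test, and exons of Gm49340 on the same strand overlap 80.5% of its exonic bases, so that these counts are no sure measure of it.

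Genes of the axis on which breaks are made were mostly higher. Of 6 axis genes 5 were higher and 0 lower, the latter by the unadjusted p as well (median 0.65), where 27.9% of all tested genes were higher and 28.4% lower. Rec8, the meiotic cohesin kleisin, had the highest value (2.83), followed by Sycp3 (1.40), of whose exonic bases 52.2% overlap Chpt1 on the opposite strand, and Stag3 (0.84). Rad21l was at -0.026 (adjusted p 0.835). All 6 genes of the meiotic entry list were higher, again beside 27.9% of all tested genes, with a median of 3.92, and this list holds Stra8, Cyp26a1 and Kit, which respond to RA. Gm4969, which encodes the STRA8 partner MEIOSIN, rose from 120 and 158 to 741 and 716 counts.

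**Figure D4:**
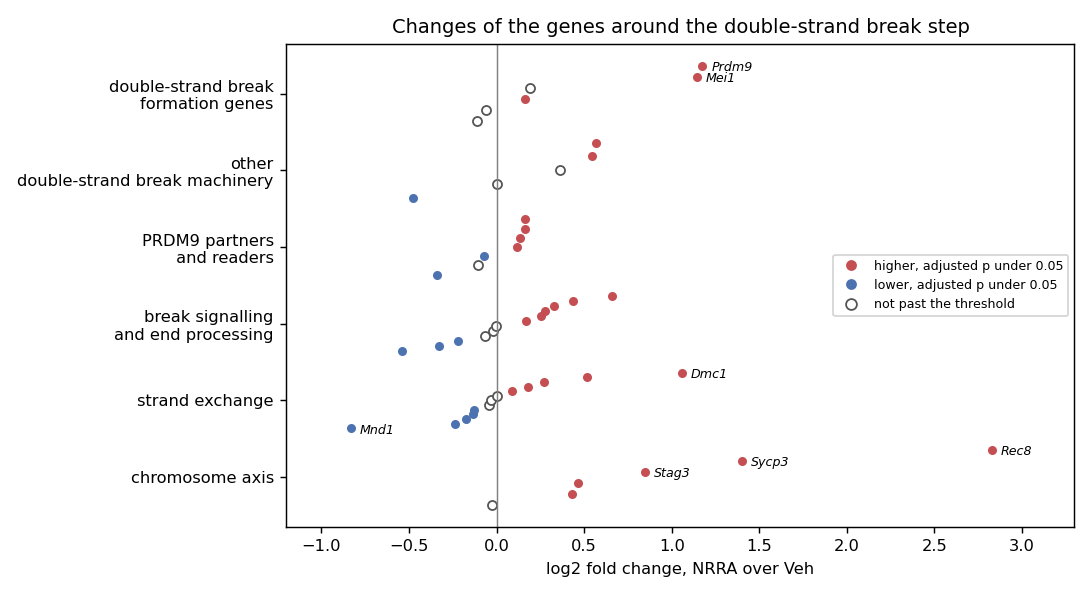
Log2 fold changes (x axis, NRRA over Veh) of the tested genes in each list other than meiotic entry, 1 point per gene, red for higher, blue for lower and open for not past the threshold. The DSB formation genes reach from -0.11 to 1.17, the strand exchange genes from -0.83 to 1.06 and the axis genes from -0.026 to 2.83.

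For each of the 6 genes the 2 tested genes with the most similar log2 CPM values over the 4 libraries (smallest Euclidean distance, prior count of 2) were listed. Mei1 was closest to Jazf1 (distance 0.045) and Ric3 (0.13), and Prdm9 to H2-Q6 (0.17), a histocompatibility gene with close paralogs, and Xk (0.17). Rec114 was closest to Rps6ka4 (0.048), and Ankrd31 to Ufd1 (0.054) and Zw10 (0.062). Mei4 was closest to Rusc1 (0.12) and Depdc1a (0.14). Spo11 was closest to Ntf5 (0.10) and C2 (0.10), both of which were not past the threshold. With 4 libraries in 2 groups many genes share such a profile, and these lists describe levels only.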

How the data were processed

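RNA-seq of 4 libraries was analysed, 2 of Veh and 2 of NRRA cultures, with groups and replicate numbers taken from the sample titles and table columns matched through the sample descriptions. The authors deposited raw counts per gene, whole numbers without normalization, one column per library. The submitters' processing notes name bcl2fastq, STAR 2.6.1c, featureCounts 1.6.4 and mm10. The annotation, the strand setting and the treatment of reads with several matches are not given in the sources used here. The methods describe stranded poly(A) libraries. The members and the gene lists were chosen with earlier results of these data known.

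Counts were filtered with filterByExpr, scaled with TMM and tested with the edgeR 4.0.16 quasi-likelihood F test (R 4.3.3, robust estimation), adjusted by Benjamini-Hochberg over 20232 genes with a threshold of 0.05. The study used DESeq2, run here (1.42.0) as an alternative. SE and 95% intervals come from the F statistic, and Poisson intervals cover counting error only. The fit was tested on simulated data. RPKM divides CPM by all annotated exon bases of GENCODE M21 (GRCm38), in which 99.7% of gene identifiers were found. The genes named are the 6 genes, the genes of the lists and, for each of the 6, the 2 tested genes nearest in log2 CPM, leaving out Gm-numbered and Rik symbols. One of these nearest genes is not reported here. Replicates differed by more than sampling noise, with a chi-square per degree of freedom of 2.45 in Veh and 1.99 in NRRA.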

Additional observations from a re-analysis of the deposited data

How the results depend on the processing

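Mei1 and Prdm9 kept their direction and their call under every alternative that gave a test, namely other scalings, filters, dispersion estimation, DESeq2, the replicate block and leaving out each library, while changing the prior count to 0.5 or 5 moved none of the 6 genes by more than its SE. Log2 fold changes with 1 library left out ranged from 1.14 to 1.15 for Mei1, from 1.13 to 1.23 for Prdm9, from 0.16 to 0.17 for Rec114, from -0.12 to -0.0012 for Ankrd31, from 0.026 to 0.39 for Mei4 and from -0.32 to 0.14 for Spo11. Rec114 lost its call without the filter (0.17, adjusted p 0.0579), with DESeq2 (0.17) and without any 1 library. Ankrd31 reversed with library size only (0.029). The count of lower PRDM9 partners was 1 in place of 2 with upper quartile scaling, library size only, no filter and DESeq2, and 1 to 2 with 1 library left out. The count of higher strand exchange genes was 1 with DESeq2 and 2 to 3 with 1 library left out, and that of lower ones was 2 with library size only and 3 to 5 with 1 library left out. The causes were not tested. Over all genes, 4224 to 6962 were called higher and 4298 to 5836 lower. A fit without 1 library assumes that the lone library left in its group varies like the other group. The titles number both groups 1 and 2, but the labels do not say what a number shares. The sample descriptions number the Veh libraries 2 and 3 instead, and the NRRA libraries 1 and 2. Deviations of libraries with the same title number correlated at 0.029 across 11326 genes. The replicate block also goes by title number, so neither is a sure check of pairing. With the replicate block Spo11 was at -0.099, Mei1 at 1.14, Mei4 at 0.20, Rec114 at 0.16 (adjusted p 0.0497), Ankrd31 at -0.061 and Prdm9 at 1.18, and the calls over all genes were 5772 higher and 5836 lower. Spo11 had the fewest counts of the 6 genes (85 to 128) and the largest SE (0.19), and how much of that SE came from depth and how much from the spread between 2 libraries was not tested.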

Other observations

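Genes of later stages differed in level and direction. Among 6 markers of late spermatocytes and spermatids, Prm2 and Spata18 were at or under 3 counts in every library, Acrv1 at 1 to 5 counts and Prm1 at 6 to 17 counts. Ccna1, a cyclin of late meiotic prophase, rose from 19 and 21 counts in Veh to 108 and 156 counts in NRRA (log2 fold change 2.58, edgeR adjusted p 7.85e-09). Tnp1, a spermatid chromatin protein gene, had 19 and 34 counts in Veh against 12 and 10 in NRRA (-1.39, adjusted p 0.00963). The list summed to between 1.73 and 6.18 CPM.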
